A study of Homo sapiens with 24 samples.

Results

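The HOXB genes are a cluster on chromosome 17 that codes for transcription factors with a homeodomain, a DNA-binding fold encoded by a stretch of each gene called the homeobox. The members were chosen by symbol, and they were selected on deposited expression values that differed between the uninduced sh1487 and shNT lines. Of the 9 genes named, 8 have a row in the table of 14119 genes (HOXB3, HOXB4, HOXB5, HOXB6, HOXB7, HOXB8, HOXB9 and HOXB13), and HOXB2 has none. All 8 passed the filter of at least 1 CPM (the read count of a gene scaled to an effective library size) in at least 3 libraries, HOXB8 only through the uninduced shNT tumours. Since the uninduced libraries chose the members, differences between uninduced groups are given as a description without a test, and the same libraries are the baseline of every doxycycline effect. Such a choice favours a rise from the low sh1487 baseline and a fall from the high shNT baseline.

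RNA was taken from xenograft tumours of COLO320DM, a human cell line labelled as colorectal adenocarcinoma and grown in mice. The 24 libraries form 8 groups of 3: sh1487 and shNT tumours on doxycycline and without it, and the same 4 groups carrying a cDNA. The label sh1487 names a hairpin, and shNT is the hairpin set beside it; the labels give neither its target nor the identity of the cDNA, and do not say whether a line is 1 clone. All animals with doxycycline received it in the diet from a mean tumour size of 150 mm3, tumours were taken on day 3, and all groups are labelled 72 hr. The series title names β-catenin, and its transcript CTNNB1 averaged 43.3 ± 1.98 CPM in induced sh1487 tumours against 226 ± 10.4 CPM in uninduced ones (SD, n = 3 each). With the cDNA it averaged 594 CPM in induced and 507 CPM in uninduced sh1487 tumours.

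The libraries held 44004848 to 80202279 reads, so that 3 reads stand at 0.0368 to 0.0711 CPM, a floor that covers counting error alone. Nothing in the labels states that the 3 libraries of a group came from different tumours; the p-values therefore describe only how far these libraries vary, and that variation may be technical. Mitochondrial transcripts took 9.98% to 21.5% of reads, the highest share being in the third library of induced shNT tumours with cDNA. Of 10 gut epithelium markers, 8 are in the table, and they summed to 1592 to 1670.5 CPM in induced sh1487 tumours, 2041 to 2337 CPM in uninduced sh1487 tumours, 1763 to 1899 CPM in induced shNT tumours and 1619 to 1917 CPM in uninduced shNT tumours. CDX2 made up most of these sums. In sh1487 tumours on doxycycline CDX2 and CDH17 fell and the other 6, such as KRT20 (51.7 CPM in induced and 9.26 CPM in uninduced tumours) and KRT8 (428 and 148 CPM in the same groups), rose by limma (median log2 change of the 8, 1.001). Of all genes tested in that comparison, 37.4% rose and 37.5% fell. CDX1 and LGALS4 have no row. Of the markers of cell types found in host tissue, 7 of 10 for fibroblasts and pericytes, 2 of 8 for endothelium and 3 of 8 for leukocytes have a row. These are rows of human genes, and the processing notes name the GRCh38 build alone, so the share of mouse tissue cannot be read from them. The 7 fibroblast and pericyte symbols have 8 rows, all of which enter their sums.

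HOX genes are known for setting position along the body axis, and their order on the chromosome follows the order of the body regions in which they act. HOXB3 and HOXB4 lie at the end that acts towards the head, and HOXB13 lies apart at the other end and is known from the distal colon, rectum and prostate. HOX proteins bind DNA together with PBX and MEIS partners, Polycomb complexes keep HOX clusters silent, and CDX factors and retinoic acid switch them on during development. In tumours as in bulk tissue, fewer cells of a type and less RNA per cell cannot be told apart.

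The homeobox is the feature the 8 genes share that the choice of members did not use. A stretch of it is printed for HOXB13, which had the largest rise on doxycycline in sh1487 tumours, and 3 of its neighbours. The 51 bases of that stretch in these 4 genes, all in the last coding exon and on the minus strand of GRCh38, are given 5′ to 3′ with capitals at bases that differ from the commonest base of the 8 genes at that position.
HOXB6: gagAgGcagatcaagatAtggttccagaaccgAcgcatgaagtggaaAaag
HOXB7: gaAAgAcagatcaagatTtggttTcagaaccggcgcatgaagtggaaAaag
HOXB9: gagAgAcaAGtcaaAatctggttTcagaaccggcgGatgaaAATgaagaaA
HOXB13: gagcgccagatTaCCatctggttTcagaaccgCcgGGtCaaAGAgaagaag

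HOXB9 and HOXB13 carried 11 such bases each, HOXB7 carried 6 and HOXB6 carried 5. The stretch lies at chr17:48596479-48596529 in HOXB6, chr17:48607914-48607964 in HOXB7, chr17:48622927-48622977 in HOXB9 and chr17:48726826-48726876 in HOXB13. Over the whole homeobox of 180 bases, HOXB6 and HOXB7 were 88.9% identical, HOXB9 and HOXB13 61.1%, and HOXB7 and HOXB13 52.2%. The longest identical run of HOXB6 and HOXB7 over the whole homeobox was 51 bases, which is not the printed stretch, where they differ. How reads of such stretches were assigned is not given in the sources used here.

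All 8 genes are read from the minus strand of chromosome 17 (GRCh38). HOXB3 (ENSG00000120093) spans chr17:48548870-48604912, a stretch that contains HOXB4 (ENSG00000182742, chr17:48575513-48580111) and HOXB5 (ENSG00000120075, chr17:48591257-48593961) and most of HOXB6 (ENSG00000108511, chr17:48595751-48604992). HOXB7 (ENSG00000260027) spans chr17:48607227-48633572, around HOXB8 (ENSG00000120068, chr17:48611377-48614939) and HOXB9 (ENSG00000170689, chr17:48621159-48626356), and HOXB13 (ENSG00000159184) spans chr17:48724763-48729178. Exons of other genes on the same strand cover 17.1% of the exon length of HOXB4, 16.6% of HOXB6 and 7.94% of HOXB3. On the opposite strand, HOXB-AS3 covers 16.3% of HOXB6 exons and 3.58% of HOXB5 exons, and HOXB-AS1 and HOXB-AS3 together cover 5.27% of HOXB3 exons, so the levels of these genes are uncertain by shared reads, as the sources do not state whether counting used the strand. HOXB7, HOXB8, HOXB9 and HOXB13 share no exon base with another gene.

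Without doxycycline, all 8 genes were lower in sh1487 tumours than in shNT tumours, with no overlap between the 3 libraries of each. HOXB7, known as overexpressed in several carcinomas, had 1.34, 1.06 and 1.36 CPM in uninduced sh1487 tumours and 19.3, 18.1 and 20.7 CPM in uninduced shNT tumours, a mean 15.5-fold lower. HOXB9, known as a mediator of Wnt-driven spread in lung cancer, had 2.02, 1.87 and 1.86 CPM in uninduced sh1487 tumours and 21.9, 19.7 and 23.6 CPM in uninduced shNT tumours, a mean 11.3-fold lower. HOXB8, known for holding myeloid progenitors undifferentiated, had 3, 2 and 5 reads in uninduced sh1487 tumours and 152, 141 and 139 reads in uninduced shNT tumours, so it was at or near the floor in the sh1487 line. These 3 neighbours in the middle of the cluster thus had the widest gaps between the lines.

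The genes on either side differed less. HOXB4, known for expanding blood stem cells, was 4.26-fold lower in uninduced sh1487 than in uninduced shNT tumours, HOXB6 2.59-fold, HOXB5 2.41-fold and HOXB3 2.00-fold. HOXB13 had 23.5, 22.4 and 21.0 CPM in uninduced sh1487 tumours and 30.01, 26.3 and 29.6 CPM in uninduced shNT tumours, a mean 1.29-fold lower. With the cDNA in both lines the pattern was similar: HOXB7 was 12.01-fold, HOXB9 7.13-fold and HOXB13 1.15-fold lower in uninduced sh1487 than in uninduced shNT tumours, again without overlap. Neuroendocrine markers, 6 of 8 of which are in the table, summed to 354 to 372 CPM in uninduced sh1487 tumours and 16.3 to 18.2 CPM in uninduced shNT tumours, and fibroblast and pericyte markers to 73.8 to 78.1 CPM in uninduced sh1487 tumours and 120 to 128 CPM in uninduced shNT tumours. The part of either in the HOXB difference was not tested.

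**Figure D1:**
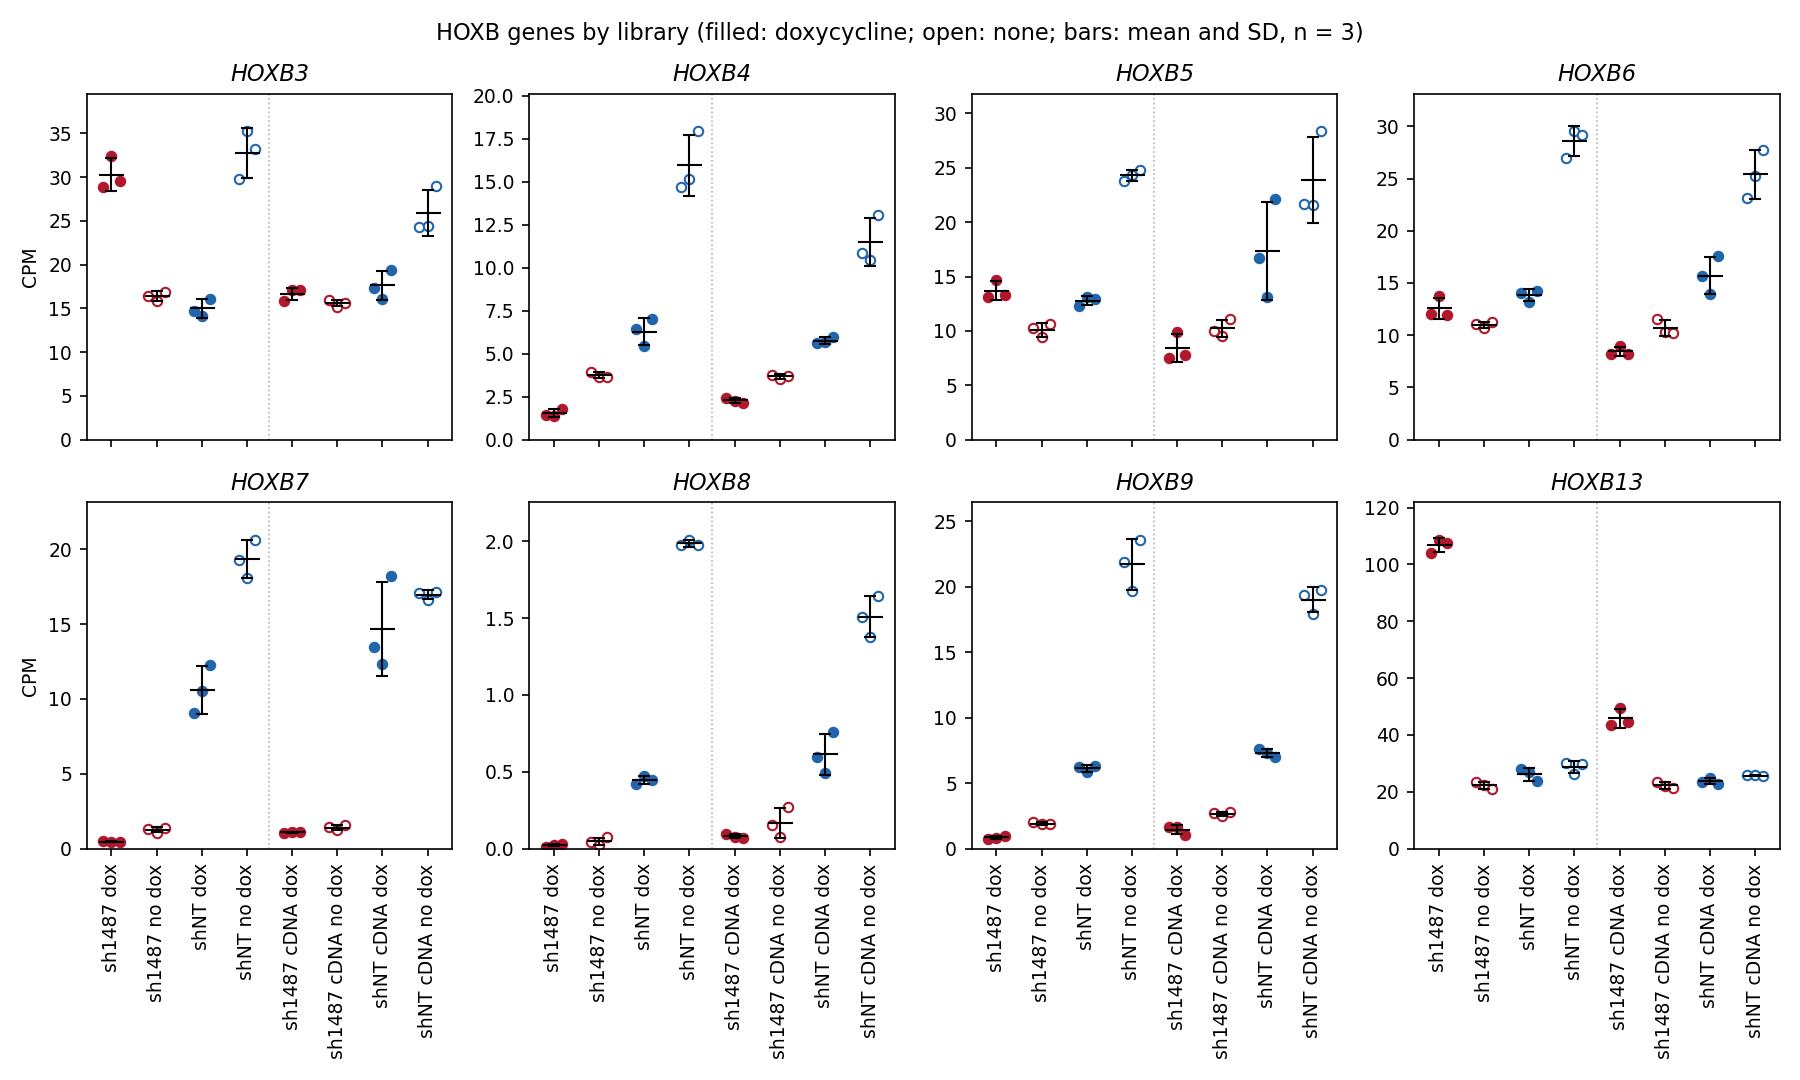
Levels of the 8 HOXB genes in CPM (vertical axis, from 0, with its own scale for each gene) in the 24 libraries; points are libraries (filled on doxycycline, open without), bars are means with SD of 3, and groups with cDNA stand right of the dotted line. HOXB13 stands highest in induced sh1487 tumours. The means of HOXB7, HOXB8 and HOXB9 stand highest in uninduced shNT tumours, lower in shNT tumours on doxycycline and lowest in all sh1487 tumours.

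Induced and uninduced sh1487 tumours without cDNA were compared, a contrast in which the doxycycline diet and the induced hairpin change together. Expression of HOXB13 rose to several times its uninduced level, HOXB3 and HOXB5 rose less, and HOXB4, HOXB7 and HOXB9, already low, fell further. Thus 3 of 8 members rose and 3 fell, against 37.4% of the 13832 genes tested that rose and 37.5% that fell, which is near the background in each direction. The rises are in the direction the choice of members favours, and the falls are against it. Both have the uninduced libraries that chose the members as their baseline, so the changes are given without p-values. The median log2 change, on the scale of log2(CPM + 1), was 0.07 over the members and 0.0063 over all genes. That scale understates changes of genes near or under 1 CPM.

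HOXB13 had 104, 109 and 108 CPM in induced sh1487 tumours and 23.5, 22.4 and 21.0 CPM in uninduced sh1487 tumours. Every induced library lay above 4 times any uninduced one. Its mean of 107 ± 2.37 CPM against 22.3 ± 1.29 CPM (SD, n = 3 each) is a ratio of 4.79, and the log2 change was 2.21 (SE 0.07, limma).

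HOXB3, a gene of the hindbrain end of the cluster, had 28.9, 32.5 and 29.6 CPM in induced sh1487 tumours and 16.5, 15.8 and 16.9 CPM in uninduced ones. Its groups did not overlap and it rose 1.85-fold (log2 change 0.84, limma). HOXB5, known from the enteric nervous system, had 13.1, 14.7 and 13.3 CPM in induced sh1487 tumours and 10.3, 9.40 and 10.6 CPM in uninduced ones, and rose 1.36-fold (log2 change 0.41, limma). HOXB6, a neighbour of HOXB5, had 12.01, 13.8 and 11.98 CPM in induced tumours and 11.1, 10.7 and 11.3 CPM in uninduced ones. It missed the threshold (log2 change 0.18, limma). HOXB6 was called in other settings, such as the edgeR quasi-likelihood test on recovered reads and when only the 6 libraries compared were fitted. It was also called without the first or the third induced library (log2 change 0.21 each).

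HOXB4 had 1.43, 1.39 and 1.80 CPM in induced sh1487 tumours and 3.96, 3.64 and 3.65 CPM in uninduced ones, a 2.44-fold fall (log2 change -0.91, limma). HOXB9 had 0.763, 0.822 and 0.974 CPM in induced tumours and 2.02, 1.87 and 1.86 CPM in uninduced ones, a 2.25-fold fall (log2 change -0.66, limma). HOXB7 had 0.482, 0.417 and 0.457 CPM in induced tumours and 1.34, 1.06 and 1.36 CPM in uninduced ones, a 2.77-fold fall (log2 change -0.63, limma). In all 3 genes the induced libraries lay below the uninduced ones. With edgeR, which adds no pseudocount of 1, the log2 changes of HOXB7 and HOXB9 were -1.46 and -1.17. In shNT tumours without cDNA the means of these 3 genes were lower on doxycycline too, 2.54-fold for HOXB4, 3.54-fold for HOXB9 and 1.82-fold for HOXB7. HOXB8 had 1, 2 and 2 reads in induced tumours and 3, 2 and 5 reads in uninduced ones, at which depth no change was detectable.

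Doxycycline in the shNT line without cDNA is the comparison set beside that of sh1487. No group had the diet without a hairpin, so the diet and the induced shNT hairpin cannot be told apart. The baseline of this comparison is the uninduced shNT libraries, whose high values chose the members. The values are therefore given as a description and the p-values are left out. HOXB3 to HOXB9 were lower on doxycycline in every library, and the HOXB13 libraries of the 2 groups overlapped. By limma 7 of 8 members were called lower and none higher, beside 18.7% of all genes tested that were called lower; nothing is read from that count, which includes HOXB8, admitted by the filter only through the uninduced shNT tumours. HOXB13 had 27.9, 27.0 and 23.6 CPM on doxycycline and 30.01, 26.3 and 29.6 CPM without it (log2 change -0.13).

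HOXB9 had 6.24, 5.84 and 6.32 CPM in shNT tumours on doxycycline and 21.9, 19.7 and 23.6 CPM without it, a mean 3.54-fold lower. HOXB8 had 0.420, 0.470 and 0.447 CPM on doxycycline and 1.97, 2.01 and 1.97 CPM without it. HOXB4 had 6.41, 5.46 and 7.01 CPM on doxycycline and 14.7, 15.2 and 17.98 CPM without it, a mean 2.54-fold lower. In these 3 genes, as in the other 4, no library on doxycycline reached the lowest one without it. The mean was 2.18-fold lower for HOXB3, 2.06-fold for HOXB6, 1.90-fold for HOXB5 and 1.82-fold for HOXB7.

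The difference of the 2 doxycycline effects, sh1487 minus shNT, equals the gap between the induced lines minus the gap between the uninduced lines. The second gap chose the members, and all 8 were lower in uninduced sh1487 tumours, so the choice favours positive differences and they are given without p-values. By limma 7 of 8 members were called above and none below, beside 36.2% of all genes tested that were above, and nothing is read from that count. The size was 2.34 for HOXB13, 1.92 for HOXB3, 1.28 for HOXB5, 1.17 for HOXB6 and 1.01 for HOXB9, all in log2 units by limma. The lines are compared with a test in the induced libraries alone, which did not choose the members but are of the same lines.

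For the genes with the lowest levels the difference depended on the scale. It was 0.31 for HOXB4 in limma and 0.04 in edgeR. HOXB7 stood at 0.19 in limma and at -0.60 in edgeR, the opposite direction. HOXB8 had 1.01 in limma, with 1 to 5 reads in each sh1487 library.

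**Figure D2:**
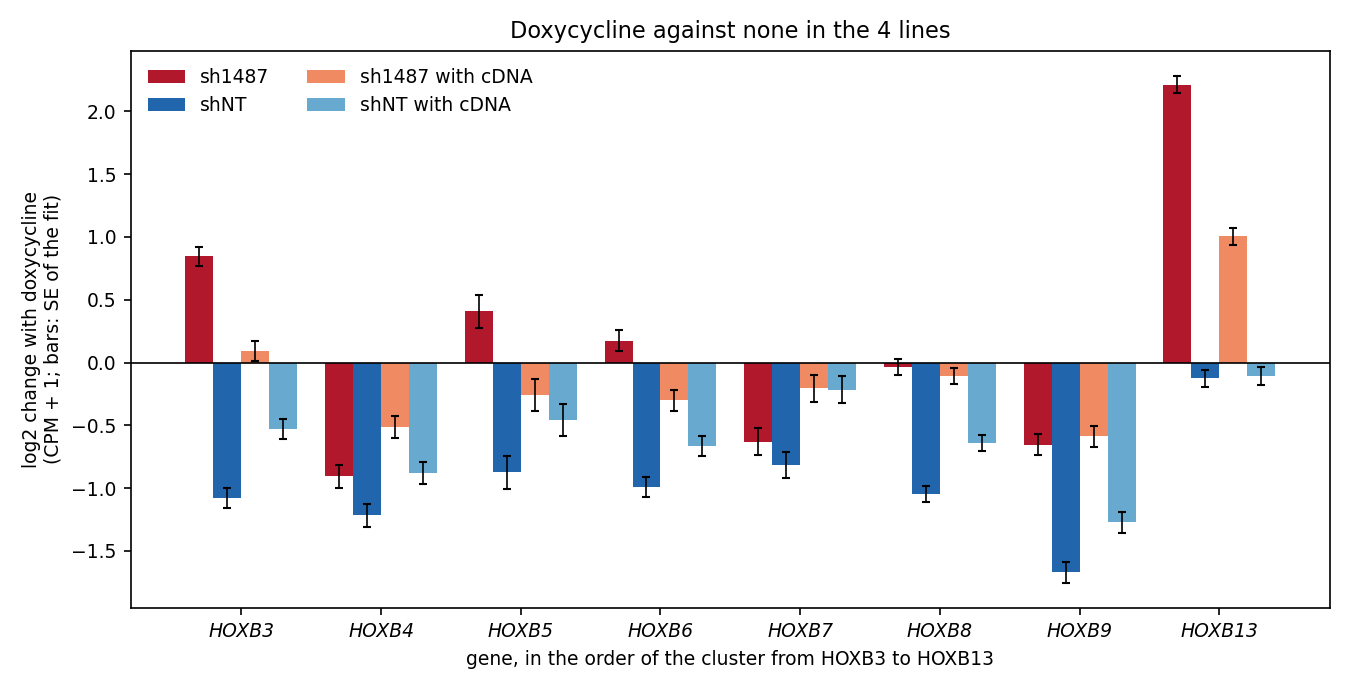
Log2 change with doxycycline of each HOXB gene, in the scale of log2(CPM + 1), for the sh1487 and shNT lines without and with cDNA; bars are limma estimates and whiskers their standard errors. HOXB13 stands at 2.21 in sh1487 without cDNA and at 1.01 with it, and near 0 in both shNT lines.

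In the sh1487 line with cDNA, the question was whether the changes persist when the cDNA is present. There 1 of 8 members rose on doxycycline and 3 fell, against 28.3% and 31.3% of all genes tested, and 5 fell when only the 6 libraries compared were fitted. That fit called 9037 of all 13832 genes, 4325 of them higher. HOXB13 rose 2.05-fold, with 43.5, 49.6 and 44.6 CPM in induced tumours and 23.6, 22.2 and 21.2 CPM in uninduced ones (log2 change 1.01, limma, again without a p-value). The 3 induced libraries lay above all uninduced ones and below all induced ones without the cDNA. HOXB4 (-0.51), HOXB9 (-0.59) and HOXB6 (-0.30) fell in limma, likewise given without p-values.

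HOXB3 had 15.8, 17.1 and 17.1 CPM in induced and 15.9, 15.2 and 15.6 CPM in uninduced sh1487 tumours with cDNA, and did not pass (log2 change 0.09, limma). Its induced and uninduced libraries overlapped, unlike those without cDNA. HOXB5 (-0.26) and HOXB7 (-0.21) did not pass in limma either. HOXB5 passed without the second induced library (-0.37). With only the 6 libraries compared in the limma fit, HOXB5 and HOXB7 passed too. HOXB8 had 6, 6 and 4 reads in induced and 8, 4 and 12 reads in uninduced sh1487 tumours with cDNA, near the floor. Its log2 change was -0.11 in limma and -0.995 in edgeR. Only the uninduced shNT tumours took HOXB8 past the filter, so nothing is read from its calls.

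The change of the sh1487 doxycycline effect with the cDNA was taken as a difference of effects, with minus without cDNA. Both uninduced sh1487 groups enter it, so it is given without p-values. By limma it was called positive for 2 of 8 members and negative for 4, beside 27.2% and 32.9% of all genes tested, and nothing is read from that count. HOXB13 (-1.21), HOXB3 (-0.76), HOXB5 (-0.67) and HOXB6 (-0.48) had the lower effect with the cDNA, by limma. HOXB4 (0.39) and HOXB7 (0.42) had the smaller decrease with it, by limma, but were no longer called with a pseudocount of 5 (0.17 and 0.12). HOXB9 (0.07) and HOXB8 (-0.07) were not called.

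In the shNT line with cDNA, the uninduced baseline is likewise one of the groups that chose the members, and no p-values are given. By limma 6 of 8 members were called lower on doxycycline and none higher, beside 15.6% of all genes tested that were called lower, and nothing is read from that count, which again includes HOXB8. HOXB9 had 7.58, 7.32 and 6.99 CPM on doxycycline and 19.4, 17.9 and 19.8 CPM without it (log2 change -1.27). The log2 change was -0.88 for HOXB4, -0.66 for HOXB6, -0.64 for HOXB8 and -0.53 for HOXB3. HOXB5 had 16.7, 13.1 and 22.1 CPM on doxycycline and 21.6, 21.6 and 28.4 CPM without it. Its groups overlapped, and its log2 change of -0.46 was -0.29 without the second library on doxycycline.

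HOXB7 had 13.5, 12.3 and 18.2 CPM in shNT tumours with cDNA on doxycycline and 17.1, 16.6 and 17.2 CPM in those without it (log2 change -0.22). Without the third library on doxycycline, which is the one with the highest mitochondrial share, the change was -0.37. For HOXB13 the log2 change was -0.11. The difference of effects with cDNA, sh1487 minus shNT, holds the uninduced gap too: by limma 6 of 8 members, HOXB8 among them, were called above and none below, beside 22.3% of all genes tested that were above, and nothing is read from that count. It was 1.11 for HOXB13, 0.68 for HOXB9, 0.62 for HOXB3, 0.53 for HOXB8, 0.37 for HOXB4, 0.36 for HOXB6, 0.20 for HOXB5 and 0.01 for HOXB7.

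On doxycycline the lines can be compared in libraries that did not choose the members, although the induced hairpin and the line cannot be told apart there. These tumours are of the same lines, so the gap that chose the members may carry over. The p-values are therefore no independent support for a difference between the lines. Without cDNA, 2 of 8 members were higher in induced sh1487 than in induced shNT tumours and 4 were lower, against 39.4% and 42.1% of all genes tested. HOXB13 was 4.08-fold higher (log2 difference 1.99, adjusted p = 2.14e-17) and HOXB3 2.02-fold higher (0.97, adjusted p = 1.44e-10) in limma. HOXB7 had 0.482, 0.417 and 0.457 CPM in induced sh1487 and 9.08, 10.5 and 12.3 CPM in induced shNT tumours, 23.5-fold lower in mean CPM (-2.99, adjusted p = 3.13e-17, limma). HOXB9 was 7.19-fold lower (-1.95, adjusted p = 1.06e-15) and HOXB4 4.09-fold lower (-1.52, adjusted p = 3.94e-13) in limma.

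HOXB8 had 1, 2 and 2 reads in induced sh1487 and 24, 21 and 30 reads in induced shNT tumours (-0.50 in limma, -4.18 in edgeR). It is counted among the lower members without and with cDNA. Only the uninduced shNT tumours took HOXB8 past the filter, so it is given without a p-value. HOXB5 (0.09, adjusted p = 5.19e-01) and HOXB6 (-0.13, adjusted p = 1.40e-01) did not pass in limma. With cDNA 1 member was higher and 6 were lower, against 37.1% and 39.4% of all genes tested: HOXB13 was 1.93-fold higher (0.92, adjusted p = 6.93e-11), HOXB7 had a log2 difference of -2.89 (adjusted p = 1.63e-16) and HOXB9 was 5.01-fold lower (-1.76, adjusted p = 1.81e-14) by limma. HOXB4 (-1.04), HOXB5 (-0.94), HOXB6 (-0.82) and HOXB8 (-0.58) were also lower, and HOXB3 did not pass (-0.07, adjusted p = 3.96e-01, limma; 0.0687 when scaled by total reads alone). The same neuroendocrine markers summed to 476 to 492 CPM in induced sh1487 and 14.5 to 15.5 CPM in induced shNT tumours without cDNA, and their part in the HOXB differences was not tested.

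Ordered over the 8 groups, HOXB13 was highest in induced sh1487 tumours without cDNA (mean 107 CPM), then in induced sh1487 tumours with cDNA (45.9 CPM), and neither overlapped the next group. The other 6 groups lay between means of 22.3 and 28.6 CPM. HOXB9 ran the other way: both uninduced shNT groups came first, overlapping each other, and both induced sh1487 groups came last, each apart from its neighbours. HOXB3 had a mixed order, with uninduced shNT tumours first (32.8 CPM), overlapped by induced sh1487 tumours (30.3 CPM), and induced shNT tumours last (15.0 CPM), overlapped by uninduced sh1487 tumours with cDNA (15.6 CPM).

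Per kilobase of exon, levels can be set beside each other between genes, though only roughly. The length is that of all annotated exons of a gene, not of the transcripts present in these tumours. HOXB3, HOXB4 and HOXB6 also share exon bases with other genes. The summed level of the 8 genes was 47.5 ± 1.61 CPM per kilobase in induced sh1487 tumours, 20.4 ± 0.670 in uninduced sh1487 tumours, 32.4 ± 0.867 in induced shNT tumours and 61.8 ± 2.55 in uninduced shNT tumours (SD, n = 3 each). HOXB13 alone made up 64.9% ± 1.00 of that sum in induced sh1487 tumours and 31.5% ± 1.75 in uninduced ones, and 23.4% ± 2.60 in induced shNT tumours and 13.4% ± 0.840 in uninduced ones. HOXB7, HOXB8 and HOXB9 together made up 1.34% in induced and 7.76% in uninduced sh1487 tumours, and 29.4% in induced and 35.6% in uninduced shNT tumours. With cDNA the share of HOXB13 was 53.4% in induced and 31.2% in uninduced sh1487 tumours. On doxycycline the summed level was thus lower in shNT tumours, and in sh1487 tumours it was higher and mostly HOXB13.

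The cDNA in itself was compared in uninduced tumours, without a test. In the shNT line the log2 difference, with minus without cDNA, ranged over the members down to -0.44 for HOXB4 and -0.33 for HOXB3, and stood at -0.03 for HOXB5. In the sh1487 line it was 0.33 for HOXB9 and 0.00 for HOXB13 on that scale, which hides changes of HOXB8: HOXB8 had 8, 4 and 12 reads with cDNA and 3, 2 and 5 reads without it, and its CPM did not overlap. HOXB9 had 2.72, 2.49 and 2.79 CPM in uninduced sh1487 tumours with cDNA and 2.02, 1.87 and 1.86 CPM in those without it.

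A pair of further transcripts of the locus is in the table. HOXB-AS3, a transcript antisense to HOXB3, HOXB5 and HOXB6, had 5.34, 5.54 and 5.47 CPM in induced sh1487 tumours and 4.89, 4.77 and 5.69 CPM in uninduced ones, and did not pass (log2 change 0.08, limma). In shNT tumours it had 7.53, 6.72 and 5.49 CPM on doxycycline and 12.7, 12.97 and 12.2 CPM without it (log2 change -0.85), and the 2 effects differed by 0.93. All of these changes rest on the uninduced libraries that chose the genes HOXB-AS3 overlaps, so they are given without p-values. Its direction in shNT tumours was that of the genes it overlaps, with which it may share reads. PRAC2, on the opposite strand beside HOXB13, was under the filter and not tested, with 60, 86 and 51 reads in induced sh1487 tumours and 22, 11 and 10 reads in uninduced ones, so that the induced libraries were the higher ones, as for HOXB13.

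Genes within 1 Mb of either end of the cluster, 31 of which were tested, were described beside it. In sh1487 tumours on doxycycline 14 rose and 9 fell, and the median change over the 31 was 0.18 (log2), against 37.4%, 37.5% and 0.0063 over all genes. TTLL6, a tubulin polyglutamylase gene 33.1 kb beyond the HOXB13 end, averaged 12.3 ± 0.289 CPM in induced and 1.54 ± 0.173 CPM in uninduced sh1487 tumours (SD, n = 3 each; log2 change 2.38, adjusted p = 1.56e-16, limma). CALCOCO2, an autophagy receptor gene 102 kb beyond that end, rose by 1.39 (adjusted p = 1.89e-15), UBE2Z at 179 kb by 1.25 (adjusted p = 3.64e-12) and SNX11, 405.5 kb beyond the HOXB3 side, by 1.23 (adjusted p = 6.69e-12), in log2 units by limma. On the HOXB13 side ATP5G1 at 164 kb (-0.46, adjusted p = 4.46e-04) and IGF2BP1 at 268 kb (-0.69, adjusted p = 1.50e-06) fell; both were picked after their values were seen. With cDNA the TTLL6 change was 0.83 (adjusted p = 5.75e-08), and in shNT tumours without cDNA it was -0.24 (adjusted p = 3.49e-02). In shNT tumours 5 of the 31 rose and 13 fell (median -0.08), beside 18.5% and 18.7% of all genes, so TTLL6 and HOXB13, near each other on the chromosome, had rises in sh1487 tumours and no rise in shNT tumours.

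**Figure D3:**
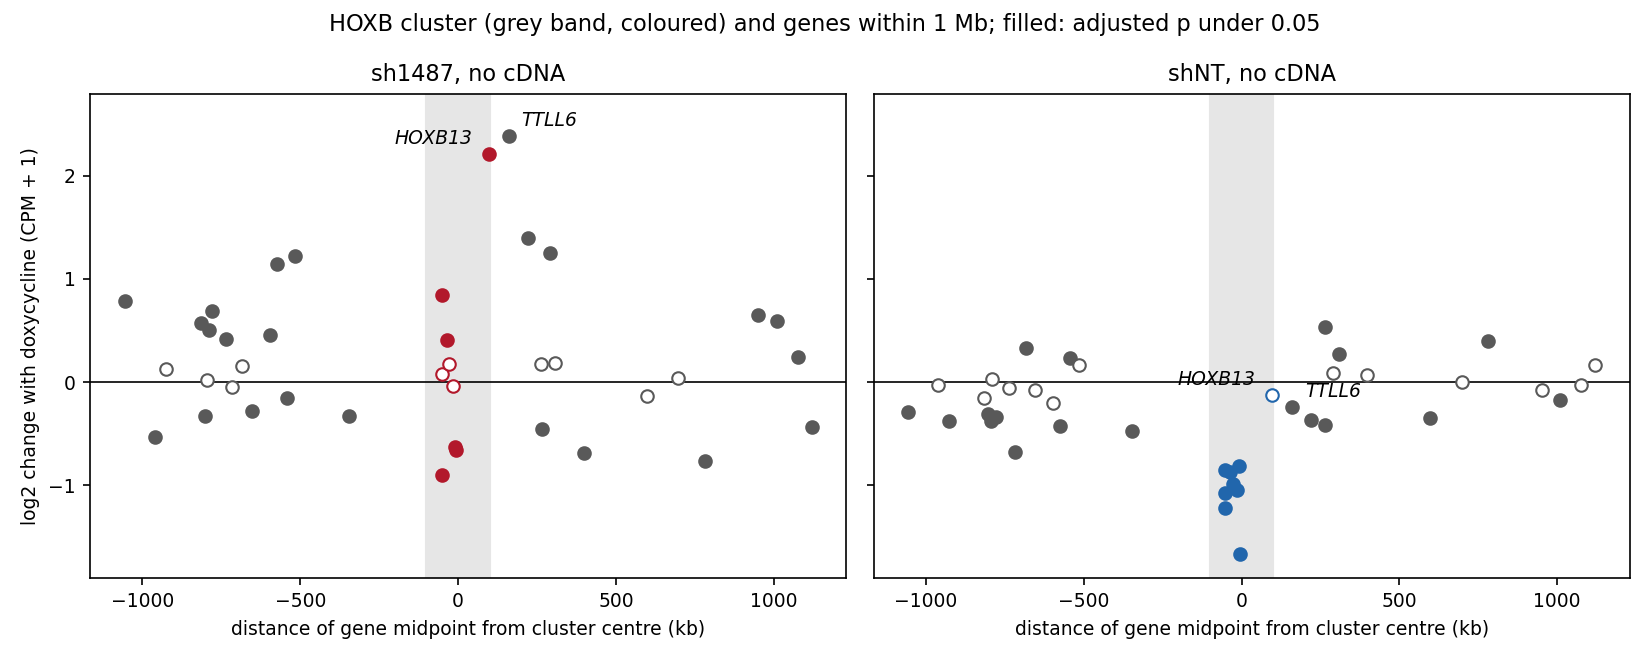
Log2 change with doxycycline, in log2(CPM + 1), of genes within 1 Mb of the HOXB cluster against the distance in kb of the gene midpoint from the cluster centre, for the sh1487 and shNT lines without cDNA; each point is 1 gene, filled where the adjusted p is under 0.05 and coloured inside the cluster, which the grey band marks. HOXB13 and TTLL6 stand at 2.21 and 2.38 in sh1487, and the HOXB genes other than HOXB13 lie below most neighbours in shNT.

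The other HOX clusters were described from a list of 29 genes, of which 26 are in the table and 25 were tested. In sh1487 tumours on doxycycline 11 rose and 7 fell (median 0.24, log2), beside 37.4% and 37.5% of all genes, and in shNT tumours 1 rose and 17 fell (median -0.45), beside 18.5% and 18.7%. Of the 25 differences of effects, sh1487 minus shNT, 19 were above and 1 below (median 0.60), beside 36.2% and 34.4% of all genes. Of 8 HOXA genes, 5 rose and 1 fell in sh1487 tumours, against 1 and 5 in shNT tumours. Of 8 HOXC genes, 4 rose and 2 fell in sh1487 tumours, against 0 and 7 in shNT tumours, and of 9 HOXD genes 2 rose and 4 fell in sh1487 tumours, against 0 and 5 in shNT tumours.

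The paralogues of HOXB13, at the same end of their clusters, moved in different directions in sh1487 tumours. HOXC13 rose by 1.22 (adjusted p = 3.39e-12) and HOXA13 by 0.67 (adjusted p = 3.90e-11), in log2 units by limma. HOXD13 averaged 23.5 ± 1.35 CPM in induced and 56.3 ± 2.89 CPM in uninduced sh1487 tumours (SD, n = 3 each) and fell (log2 change -1.22, adjusted p = 3.11e-14, limma), the opposite of HOXB13. HOXD3, a paralogue of HOXB3, rose by 1.47 (adjusted p = 4.23e-14), as HOXB3 did by 0.84. In shNT tumours the smallest p values were those of HOXC4 (-0.98, adjusted p = 2.12e-08), HOXA3 (-0.90, adjusted p = 1.12e-07), HOXC11 (-0.53, adjusted p = 8.35e-07) and HOXA5 (-0.82, adjusted p = 1.14e-06), all lower on doxycycline by limma.

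**Figure D4:**
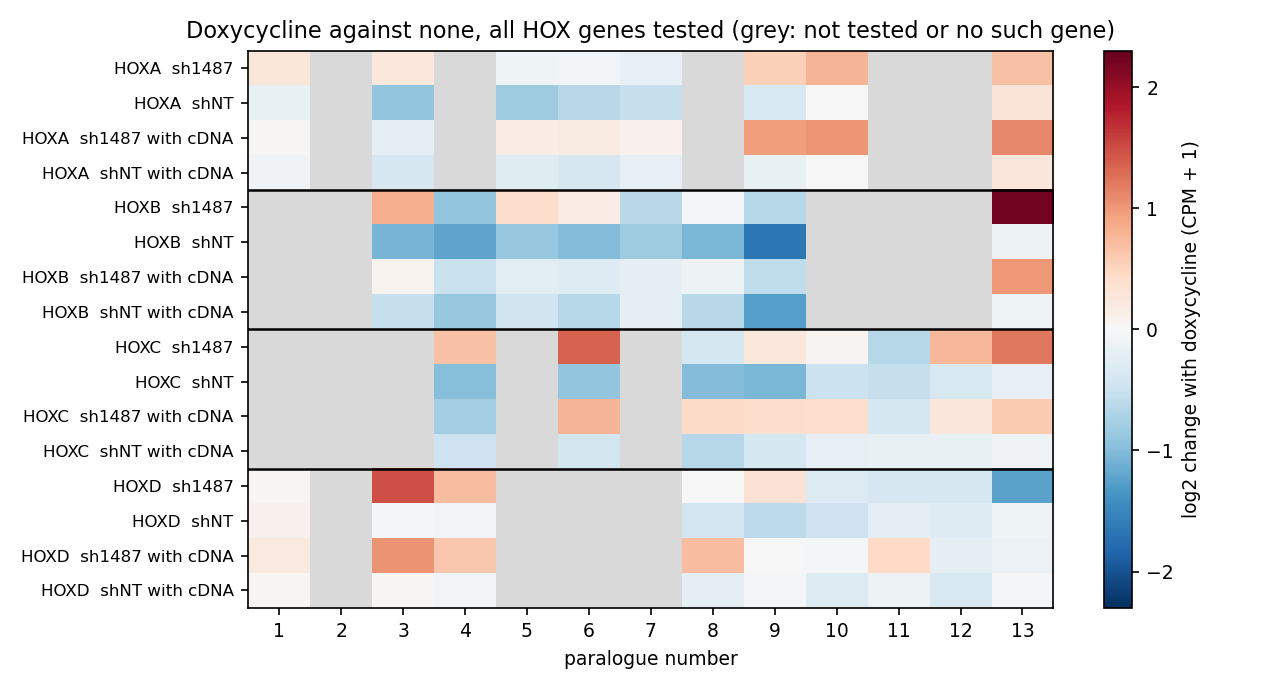
Log2 change with doxycycline, in log2(CPM + 1), as the colour of each cell, for the tested genes of the HOXA, HOXB, HOXC and HOXD clusters by paralogue number (columns) in the 4 lines (rows); grey cells have no tested gene. HOXB13 at 2.21 is the deepest red and HOXD13 at -1.22 is blue, both in sh1487, and most cells of shNT are blue.

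The part of partners and regulators of HOX genes in the HOXB changes was not tested. Over all genes, 37.4% rose and 37.5% fell in sh1487 tumours on doxycycline, and 18.5% rose and 18.7% fell in shNT tumours. The share of Polycomb genes that rose and both shares of the Trithorax and demethylase list were below the background in sh1487 tumours. Of 9 cofactor genes tested, 7 rose and 1 fell in sh1487 tumours on doxycycline (median log2 change 0.42), and 0 rose and 4 fell in shNT tumours. MEIS2, a DNA-binding partner of HOX proteins, averaged 40.7 ± 0.943 CPM in induced and 18.7 ± 0.954 CPM in uninduced sh1487 tumours (SD, n = 3 each; log2 change 1.08, adjusted p = 5.91e-13, limma). MEIS3 (1.40), PBX2 (0.42) and PBX3 (0.47) rose with adjusted p values of 1.99e-11, 1.45e-07 and 1.99e-06 by limma.

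Of 15 CDX and retinoic acid genes, 10 rose and 1 fell in sh1487 tumours on doxycycline, against 2 and 3 in shNT tumours. STRA6, the retinol uptake receptor, averaged 28.99 ± 0.911 CPM in induced and 0.769 ± 0.0991 CPM in uninduced sh1487 tumours (SD, n = 3 each; log2 change 4.08, adjusted p = 4.01e-23, limma), and CYP26A1, which breaks retinoic acid down, rose by 1.90 (adjusted p = 3.98e-16). ALDH1A1 (0.98, adjusted p = 1.79e-10) and ALDH1A2 (1.02, adjusted p = 2.24e-10), which make retinoic acid, also rose by limma. CDX2, the intestinal member of the CDX factors, averaged 1007 ± 22.3 CPM in induced and 1944 ± 149 CPM in uninduced sh1487 tumours, and fell by 0.95 on the log2 scale (adjusted p = 1.76e-09, limma).

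Of 23 Polycomb genes, 8 rose and 13 fell in sh1487 tumours on doxycycline, against 4 and 8 in shNT tumours. EZH2, the methyltransferase that lays the Polycomb mark, averaged 36.2 ± 0.0640 CPM in induced and 99.7 ± 1.2 CPM in uninduced sh1487 tumours (SD, n = 3 each; log2 change -1.44, adjusted p = 6.19e-17, limma). PHF19 (-1.44, adjusted p = 7.87e-15) and CBX2 (-0.78, adjusted p = 3.69e-10) fell, by limma. Of 16 genes listed under Trithorax and demethylases, 2 rose and 4 fell in sh1487 tumours, against 2 and 2 in shNT tumours. The list also holds RAD21, a cohesin gene that is neither. KDM6B, a demethylase that removes the Polycomb mark, averaged 223 ± 10.2 CPM in induced and 88.7 ± 12.2 CPM in uninduced sh1487 tumours (log2 change 1.33, adjusted p = 5.55e-11), and in shNT tumours it fell on doxycycline (-0.85, adjusted p = 1.23e-06, limma). WDR5 (-0.52, adjusted p = 5.00e-08) and RAD21 (-0.27, adjusted p = 2.35e-04) fell and RBBP5 (0.52, adjusted p = 1.13e-05) rose in sh1487 tumours by limma.

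Across the 24 libraries, which share lines and diets, the members were compared with their mean profile (the mean of z-scores of log2(CPM + 1) over the 8 genes, each member being part of that mean), as a description. Pearson's r was 0.985 for HOXB6, 0.965 for HOXB5, 0.959 for HOXB8, 0.905 for HOXB9, 0.863 for HOXB4, 0.837 for HOXB7 and 0.719 for HOXB3, but -0.14 for HOXB13. The profile includes the uninduced libraries, whose gap between the lines chose the members. A member with a wide gap is thus favoured to follow it, and HOXB13 had the narrowest gap, so nothing is read from these values. Of the genes outside the cluster, the 5 most like the mean profile were SHISA3 on chromosome 4 (r = 0.955), KANSL1 on chromosome 17 (0.950), MYLK4, CTSO and FUT3. The 5 least like it were CA8, NUP93, PNP, MAP3K5 and MDH2. SHISA3 averaged 1.87 CPM in induced sh1487, 0.361 CPM in uninduced sh1487, 3.70 CPM in induced shNT and 11.8 CPM in uninduced shNT tumours, the same high group as for most HOXB genes.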

How the data were processed

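Per the labels' protocols, libraries came from poly(A) RNA by a stranded TruSeq kit and were read on a NovaSeq S4. The submitters' processing notes list STAR 2.7.7a, Trimmomatic 0.39, Subread 2.4.2, featureCounts and edgeR 4.0.2 with the GRCh38 build, without their order. The authors deposited a signal per gene and library in CPM on an effective library size (column sums 933631.7 to 1137971.1). Dividing by the CPM of 1 read gave whole reads for 100% of values within 0.001. Since the table holds CPM, limma was the main test and count tests on recovered reads were alternatives.

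The filter of 1 CPM or more in 3 or more libraries kept 13832 genes and removed 287. Values on the scale log2(CPM + 1), a pseudocount of 1, were fitted with 8 group means over 24 libraries in limma 3.58.1 with trend (R 4.3.3), with Benjamini-Hochberg adjustment over all genes tested and calls at an adjusted p under 0.05. For doxycycline with sh1487 without cDNA, limma called 10368 genes and the edgeR 4.0.16 quasi-likelihood test 10469. Alternatives were DESeq2 1.42.0, other scalings, pseudocounts of 0.1 and 5, other filters, only the groups compared, a replicate block, and each library left out in turn. Positions and exon lengths came from GENCODE v29 (14106 IDs matched), and homeobox sequences from its GRCh38 transcripts. Some items are not reported here. The limma fit was tested on simulated data.

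The members and gene lists were chosen with earlier results of these data known. All members were named in every group, every measured transcript of the locus, up to 4 genes of each other list by smallest adjusted p in the contrast described (and CDX2, chosen after its values were seen), and the 5 genes most and least like the mean profile.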

Additional observations from a re-analysis of the deposited data

Results flagged for a closer look

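The differences of doxycycline effects that passed an interaction term in limma are listed here because 2 groups differed under the same contrast. Values are in log2 units. The differences between sh1487 and shNT contain the gap between the uninduced lines, on which the members were chosen, so they are values only and support nothing.

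Without cDNA, the sh1487 effect minus the shNT effect was 2.34 for HOXB13, 1.92 for HOXB3, 1.28 for HOXB5, 1.17 for HOXB6, 1.01 for HOXB9, 1.01 for HOXB8 and 0.31 for HOXB4. With cDNA the same difference was 1.11 for HOXB13, 0.68 for HOXB9, 0.62 for HOXB3, 0.53 for HOXB8, 0.37 for HOXB4 and 0.36 for HOXB6.

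For the sh1487 lines, the doxycycline effect with cDNA minus the effect without it was -1.21 for HOXB13, -0.76 for HOXB3, -0.67 for HOXB5, -0.48 for HOXB6, 0.42 for HOXB7 and 0.39 for HOXB4. Both uninduced sh1487 groups enter this difference, so these too are values only.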

How the results depend on the processing

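The number of called members in each of the 9 comparisons, both directions together, stayed within 1.5 times its value under the alternatives tried. By direction, 5 members in place of 3 fell in sh1487 tumours with cDNA with only the groups compared, with a pseudocount of 0.1 and without replicate 3 of both shNT groups with cDNA. In that order, those settings called 9037 (4325 higher), 8271 (3915 higher) and 9179 (4379 higher) of all 13832 genes. The 5 with a pseudocount of 0.1 included HOXB8, which only the uninduced shNT tumours took past the filter. For the sh1487 minus shNT effect without cDNA, edgeR, DESeq2 and a pseudocount of 0.1 called 1 member below in place of 0, and for the effect with minus without cDNA a pseudocount of 5 called 0 above in place of 2. Of the alternatives for single members, 1368 left direction and call as they were, 25 ended a call and 25 made one, and 13 turned the direction; of the untested differences, 343 moved by less than the spread between replicates, 31 by more and 10 changed sign. With a pseudocount of 5, the doxycycline changes of HOXB4, HOXB7, HOXB8 and HOXB9 shrank in the comparisons where they had passed, and in edgeR those of HOXB7, HOXB8 and HOXB9 were larger. Scaling by total reads alone moved the median of all genes by 0.105 for doxycycline with sh1487 and by 0.138 between induced lines with cDNA. Over all genes it gave 3178 higher of 4993 called for doxycycline in shNT tumours (2561 higher and 2588 lower as reported), 3728 of 6249 for the difference of effects with cDNA (3082 and 3406) and 6197 of 10504 between induced lines with cDNA (5126 and 5445). When only the 6 libraries compared were fitted, 547 genes were called for doxycycline in shNT tumours with cDNA, against 2249 higher and 2157 lower as reported.

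The replicate numbers were not taken as pairs, since no comparison had every same-numbered correlation over 0.1: they were -0.216, -0.151 and -0.12 for doxycycline in sh1487 tumours, but 0.017, 0.82 and 0.84 in shNT tumours with cDNA. With the replicate block the called members numbered 6, 7, 5 and 6 for doxycycline in sh1487, shNT, sh1487 with cDNA and shNT with cDNA, and 7, 6 and 6 for the 3 differences of effects, and 6 and 7 between induced lines. Of all 13832 genes tested, that setting called 10502, 5486, 8474 and 4777 for doxycycline in the same order. It called 9919, 6817 and 8560 for the differences of effects, and 11398 and 10698 between induced lines.

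For HOXB7, the sh1487 minus shNT effect without cDNA was -0.60 in edgeR, -0.58 in DESeq2 and -0.42 with a pseudocount of 0.1; with cDNA it was -0.15 in edgeR, -0.14 in DESeq2, -0.11 with a pseudocount of 0.1, -0.0387 and -0.0974 without the first and the second induced shNT library, -0.00503 without the third induced sh1487 library and -0.0343 without the second uninduced sh1487 library, in a range up to 0.167. For with minus without cDNA, HOXB8 was 0.0341 in DESeq2 and HOXB9 -0.00808 with a pseudocount of 5. Between induced lines with cDNA, HOXB3 was 0.0687 with total reads alone. For the cDNA in uninduced shNT tumours, HOXB5 was 0.0281 and 0.0287 without the first and the second library with cDNA, in a range from -0.161. In uninduced sh1487 tumours, HOXB4 was 0.00362 with total reads, 0.0101 without the first library without cDNA and 0.00168 without the second with it (lowest -0.0378); HOXB5 was -0.0284 without the second library without cDNA and -0.0356 without the third with it (highest 0.0591); HOXB13 was -0.0114 with DESeq2 size factors, -0.0387 without the third library without cDNA and -0.0356 without the first with it (highest 0.0411). The cause was not tested in any of these.

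Depth limits HOXB8 in the sh1487 lines, where libraries held 1 to 12 reads.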
